A study of Mus musculus with 5 samples.

Results

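The serpins are a family of protease inhibitors, and the transcripts of their genes were followed in the mouse uterus after exposure to seminal plasma of aged or young males. The members are the genes of the deposited count table whose names begin with Serpin, with Serpinh1 (a collagen chaperone), Serping1 (the complement C1 inhibitor) and the pseudogene Serpina3e-ps left out, and those described here are 41 of the 28666 listed genes. By clade letter, 15 members belong to clade A, 18 to clade B, 2 each to clades E, F and I, and 1 each to clades C and D. The deposited table annotates 3 members as kinds of pseudogene: Serpinb1-ps1 (unprocessed, at most 1 count in a library), Serpinb10 (polymorphic) and Serpina3h (transcribed and unprocessed), of which Serpina3h was abundant enough to be tested.

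Uteri came from ICR females aged 6 to 8 weeks, which the labels place at day 3.5 after caging with ligated males. The methods of the study count instead from the detection of a copulatory plug and give a lower value in days, before any embryo transfer. Females of the aged-SP group (2 libraries, replicates 1 and 4) were caged with aged vasectomized C57BL/6 males, and those of the young-SP group (3 libraries, replicates 1, 2 and 4) with young ones. All females therefore received seminal plasma without sperm, and no unmated female is among the samples. The libraries held between 15071914 and 16728601 counts assigned to genes, of which the 41 members took between 0.0525% and 0.0591%. Markers of endometrial stroma, myometrium and epithelium were abundant in every library, with summed levels of at least 3331, 9046 and 966 CPM (counts divided by the normalized library total and scaled up). Of 5 markers of trophoblast and decidua and 6 of seminal vesicle, 1 of each is among the listed genes. These were at or near 0 in every library, with at most 0.134 and 0.181 CPM. In bulk tissue, fewer cells of a type and less RNA per cell cannot be told apart.

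A serpin offers an exposed loop to its protease as bait, and once the loop is cut the serpin refolds, drags the protease along and locks it in an inactive complex. Clade A serpins are mostly secreted and include the antitrypsin and antichymotrypsin relatives, whereas clade B serpins mostly lack a signal peptide and act inside cells, where they guard against granule proteases and cathepsins. Clade E includes protease nexin-1, clade F holds the angiogenesis inhibitor PEDF and antiplasmin, and clade I holds neuroserpin. In the uterus before implantation, proteases of glands, leukocytes and the plasminogen system act on the matrix and on secretions, and serpins are among their partners. In rodents several serpin genes have multiplied into local arrays. Here the 15 clade A members lay within 0.800 Mb of chromosome 12, while clade B fell into 8 members within 0.749 Mb of chromosome 1 and 10 members within 1.16 Mb of chromosome 13.

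Promoter stretches are shown for the Serpina3 genes because their levels moved together from library to library, as described below for Serpina3f, Serpina3g, Serpina3h and Serpina3i but less so for Serpina3n. RefSeq promoter windows (GRCm38.p6, 250 bases before to 50 after the annotated start) were searched on both strands for the letters TTCNNNGAA, the recognition pattern of STAT factors. Serpina3h had no entry in the promoter table. Each line gives 114 bases, 5′ to 3′, with the match in capitals, and for Serpina3n the stretch of equal length that is most like that of Serpina3g.
Serpina3f (chr12:104214378-104214491, plus strand): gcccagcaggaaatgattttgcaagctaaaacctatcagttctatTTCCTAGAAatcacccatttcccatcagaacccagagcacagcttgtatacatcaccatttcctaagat
Serpina3g (chr12:104236069-104236182, plus strand): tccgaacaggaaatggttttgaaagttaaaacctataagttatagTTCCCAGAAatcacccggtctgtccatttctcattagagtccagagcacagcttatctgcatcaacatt
Serpina3i (chr12:104262975-104263088, plus strand): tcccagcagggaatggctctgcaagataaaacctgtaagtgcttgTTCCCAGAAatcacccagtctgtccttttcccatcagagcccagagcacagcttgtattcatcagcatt
Serpina3n (chr12:104406540-104406653, plus strand): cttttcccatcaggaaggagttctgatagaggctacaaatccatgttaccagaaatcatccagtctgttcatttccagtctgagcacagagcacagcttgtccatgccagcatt
The matches began at positions -121 (Serpina3f), -33 (Serpina3g) and -102 (Serpina3i) relative to the start. Compared without gaps, the stretch of Serpina3i had the same base as that of Serpina3g at 94 of 114 positions. Those of Serpina3f and Serpina3n each did so at 64. In Serpina3n the bases aligned with the match of Serpina3g differ by the single substitution C3A, counted from 1 at the first base of the match in Serpina3g. Of 32851 promoter windows of the genome, 8.30% hold these letters. Among the 17 windows of the 15 tested members in the table, 5 hold them, and these belong to Serpina3f, Serpina3g, Serpina3i and Serpinb6a. The windows counted for Serpina3f overlap and hold the same match. The Serpina3 genes are also close in sequence, so these windows are not independent. A match describes the letters only, and the absence of one says nothing about a factor.

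The promoter windows of Serpinb11 and Serpinb5 are shown because this pair, on chromosome 1, had the largest log2 fold changes of the 18 tested members. Capitals mark CCAAT, or its complement ATTGG, which 37.4% of all windows hold.
Serpinb11 (chr1:107362064-107362363, plus strand): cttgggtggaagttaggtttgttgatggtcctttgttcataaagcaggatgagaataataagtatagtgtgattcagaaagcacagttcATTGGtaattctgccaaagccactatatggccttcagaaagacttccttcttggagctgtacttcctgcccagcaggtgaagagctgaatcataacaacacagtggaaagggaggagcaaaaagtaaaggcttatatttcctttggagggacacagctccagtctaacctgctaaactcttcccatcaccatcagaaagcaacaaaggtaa
Serpinb5 (chr1:106860925-106861224, plus strand): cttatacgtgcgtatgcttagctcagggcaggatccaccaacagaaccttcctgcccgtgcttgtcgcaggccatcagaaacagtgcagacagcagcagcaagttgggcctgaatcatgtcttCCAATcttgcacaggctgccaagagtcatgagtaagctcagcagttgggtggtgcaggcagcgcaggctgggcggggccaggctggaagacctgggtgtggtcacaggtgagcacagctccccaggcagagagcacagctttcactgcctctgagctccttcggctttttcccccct

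In each library the expression of the family was dominated by a few genes. On the scale of FPKM (counts scaled by gene length and library total), which allows levels of different genes to be compared, Serpinf1 was the highest at a mean of 88.5 over the 5 libraries and made up 47.9% of the summed FPKM of the members. It encodes PEDF, a secreted serpin that does not inhibit proteases and is known for restraining vessel growth. Serpinb6a, an intracellular inhibitor of cathepsin G, followed at 21.9 FPKM, and Serpinb1a, an intracellular inhibitor of neutrophil elastase and cathepsin G, at 15.5. These 3 genes held 68.1% of the family's summed FPKM. The next mean levels were those of Serpina3g (11.9), Serpinb9 (9.96), Serpinb6b (8.52), Serpine2 (7.24) and Serpina3n (7.16), whose ranges over the libraries overlapped. The order differed between libraries. Serpina3g stood above Serpinb6a in aged-SP replicate 1 (28.8 against 20.6 FPKM) and in young-SP replicate 1 (19.0 against 18.5 FPKM). Serpinb11 at 2.94 and Serpinb8 at 2.40 completed the highest 10. By clade, the share of the summed FPKM was 47.9% for F, 33.8% for B, 13.8% for A and 3.93% for E.

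**Figure D1:**
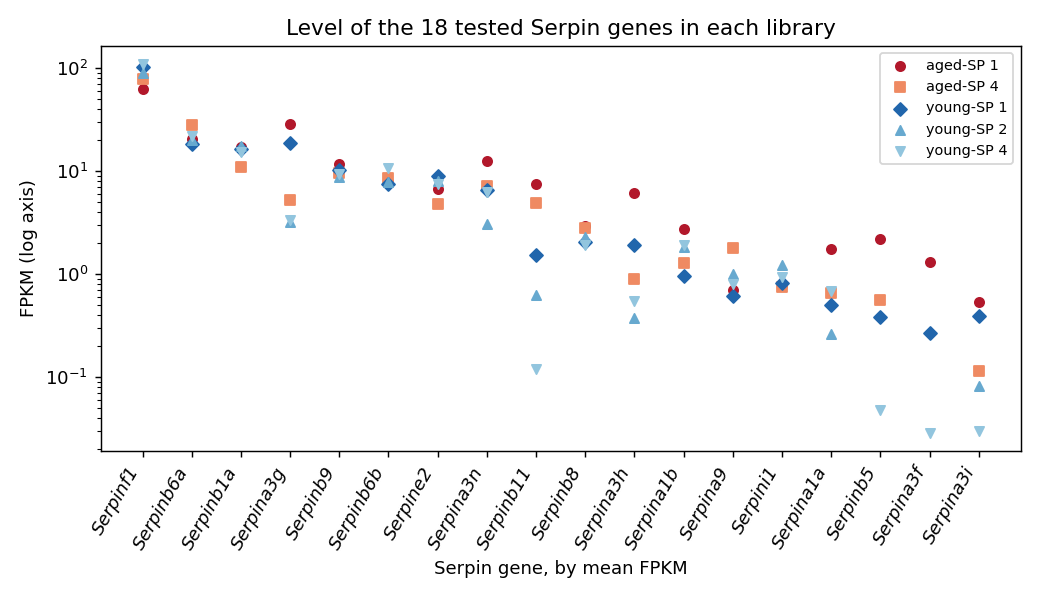
FPKM (log axis) of the 18 tested Serpin genes, ordered by their mean, with 1 point per library (red and orange, aged-SP; blue shades, young-SP; values of 0 are not drawn). Serpinf1 lies above all others in every library, and genes of low level such as Serpinb11, Serpinb5 and Serpina3f are spread over a wide range.

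Of the 41 members, 18 passed the filter on low counts and were tested, and 23 did not. The untested members had at most 16 counts in any library. In clade A they were Serpina1c (at most 16 counts), Serpina10 (6), Serpina11 (5), Serpina1e (2), Serpina1d, Serpina3a and Serpina3c (1 each). In clade B on chromosome 1 they were Serpinb2 (11), Serpinb7 (7), Serpinb10 and Serpinb12 (6 each) and Serpinb3c (1). Those of clade B on chromosome 13 were Serpinb6c (5), Serpinb1b and Serpinb1c (3 each), Serpinb9b (2), Serpinb9f and Serpinb1-ps1 (1 each). Antithrombin (Serpinc1, 4), heparin cofactor II (Serpind1, 11), Serpine3 (2), antiplasmin (Serpinf2, 4) and Serpini2 (1) were also too low. The liver-made inhibitors of clotting were therefore near the detection limit in this tissue, and liver markers such as Alb and Apoa1 summed to at most 2.78 CPM.

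The comparison of aged-SP with young-SP uteri asked whether the age of the male is accompanied by a different expression of these inhibitors. None of the 18 tested members was called by edgeR's quasi-likelihood test at an adjusted p under 0.05 with an absolute log2 fold change over 1, where 0.147% of the 17013 tested genes were called. An unadjusted p under 0.05 was reached by 5 members, 3 at a higher level in the aged-SP group (Serpinb11, Serpinb5 and Serpinb8) and 2 at a lower level (Serpinf1 and Serpine2). The background of that count is 19.0% of all tested genes (9.62% higher and 9.36% lower), so the share of members lies near what the table as a whole gives. DESeq2's Wald test called 1 member, Serpinb11, where it called 3.60% of the genes with an adjusted p. An absolute log2 fold change over 1 was seen in 6 of the 18 members against 9.16% of all tested genes, and these were Serpinb5, Serpinb11, Serpina3f, Serpina3h, Serpina1a and Serpina3g. The CPM values of the groups did not overlap for 7 members (aged-SP above young-SP in 4 and below it in 3), and likewise did not overlap for 38.8% of all tested genes (above in 19.5% and below in 19.3%).

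The fitted log2 fold change was positive for 13 of the 18 tested members, against 50.9% of all tested genes, and its median was 0.56, against 0.0072 over all tested genes. This tilt rested on 1 library: aged-SP replicate 1 was the highest of the 5 libraries for 12 of the 18 members, and without it the median was -0.050. By clade, all 8 tested genes of clade A had a positive value (median 0.98), clade B had 5 positive and 2 negative ones (median 0.27), and the 3 tested genes of clades E, F and I had negative ones. The p-values measure the spread between these females. How many males each group was caged with is not given in the sources used here, so spread between males cannot be separated.

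**Figure D2:**
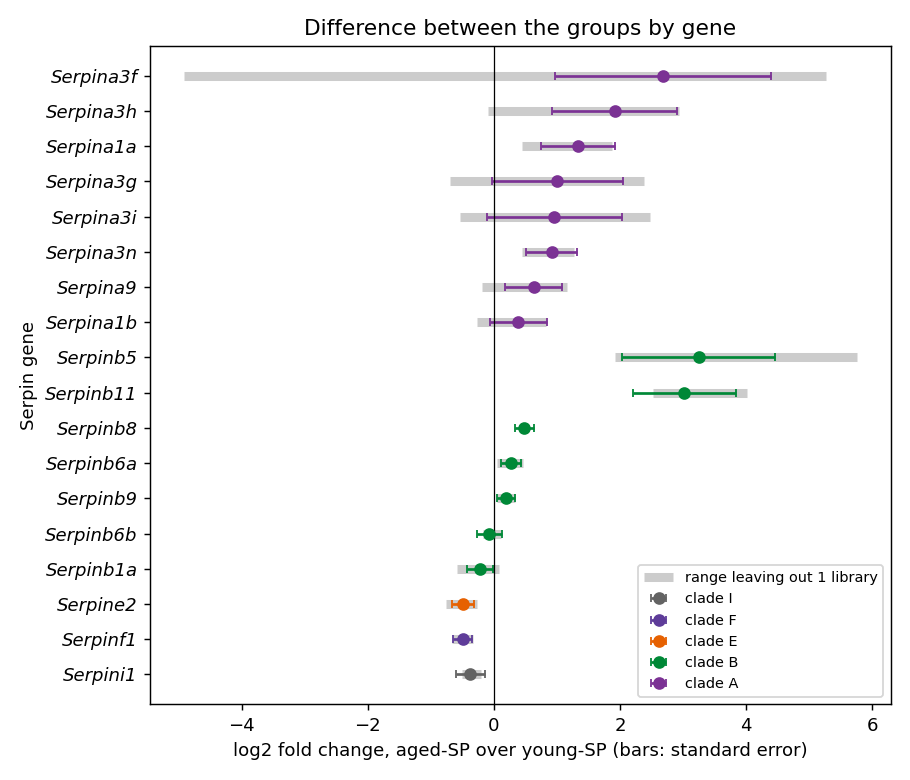
Fitted log2 fold change, aged-SP over young-SP, of the 18 tested Serpin genes, grouped by clade, with the standard error (bars) and the range of the fits that leave out 1 library each (grey). The intracellular genes of chromosome 13 lie close to 0, and Serpinb5 and Serpinb11 lie above 3. The grey ranges of Serpina3f, Serpina3g, Serpina3h, Serpina3i, Serpina1b, Serpina9, Serpinb1a and Serpinb6b cross 0.

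Within clade B, the 3 tested genes of the chromosome 1 array had higher levels in both aged-SP libraries than in any young-SP library. The same holds for 19.5% of all tested genes, and the other 5 members of this array were not tested. Serpinb11 (ENSMUSG00000026327, chr1:107361198-107380475), a little studied intracellular serpin, reached 16.7 and 10.7 CPM in aged-SP replicates 1 and 4, and 3.38, 1.36 and 0.267 CPM in young-SP replicates 1, 2 and 4. The group means were 13.7 ± 4.25 CPM (SD, n = 2) and 1.67 ± 1.58 CPM (SD, n = 3), an 8.20-fold difference. The log2 fold change was 3.02 ± 0.81 (SE) with an adjusted p of 0.150 by edgeR, and 3.03 with an adjusted p of 0.00427 by DESeq2. Its highest young-SP library was replicate 1, and without that library edgeR gave 4.02 with an adjusted p of 0.0409, and Serpinb11 was the single member called in any fit without a library. That fit called 3.30% of all tested genes, against 0.147% with all 5 libraries. The adjusted p of edgeR over the fits that leave out a library lay between 0.0409 and 0.418. None of the 50-base stretches of its transcripts occurs in another gene, so reads of that length are not shared with one.

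Serpinb5 (ENSMUSG00000067006, chr1:106861173-106883348) encodes maspin, an epithelial serpin that is not an inhibitor of proteases. Its level was 6.17 and 1.53 CPM in the aged-SP libraries and 1.06, 0 and 0.134 CPM in the young-SP libraries. All libraries were low and the gap between the lower aged-SP and the highest young-SP library was small. The log2 fold change was 3.25 ± 1.21 (SE, adjusted p = 0.240 by edgeR), and it ranged from 1.93 to 5.76 when single libraries were left out. Serpinb8 (ENSMUSG00000026315, chr1:107590006-107610484), an intracellular serpin able to inhibit furin, had the tightest groups, with 14.4 and 13.4 CPM against 9.88, 10.7 and 9.21 CPM. Its log2 fold change was 0.49 ± 0.15 (SE, adjusted p = 0.187 by edgeR) and stayed between 0.43 and 0.54 without any 1 library. The untested neighbours did not share 1 direction. Serpinb2, the plasminogen activator inhibitor of macrophages and keratinocytes, had 1 count in each aged-SP library and 5, 11 and 7 counts in the young-SP libraries. Serpinb7 had 1 and 7 counts against 0, 1 and 0. Serpinb12 had 0 and 2 counts against 4, 6 and 4.

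**Figure D3:**
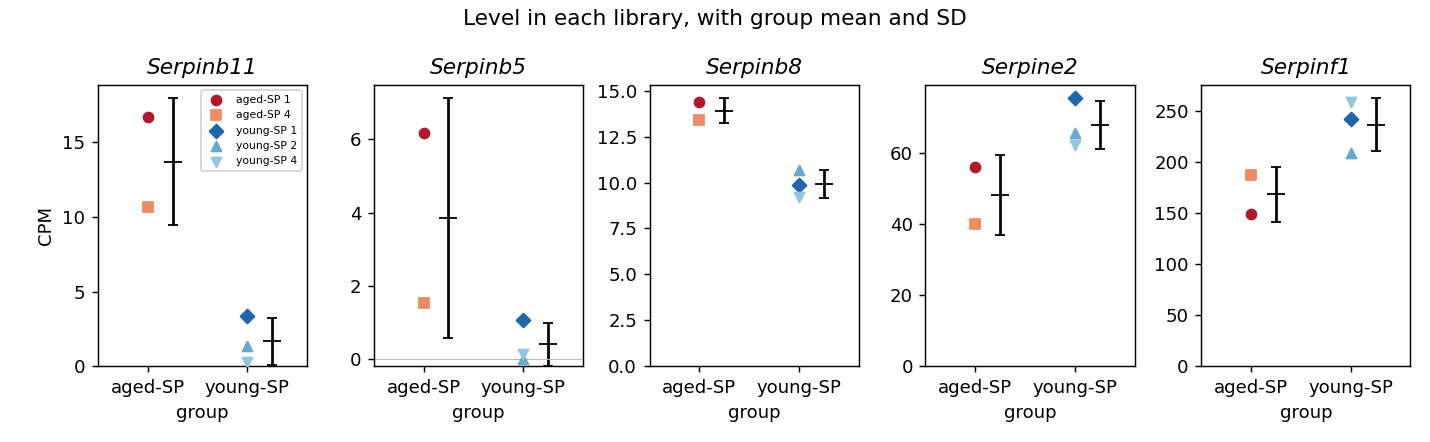
CPM in each library (points; horizontal axis, group) with the group mean and SD (black) for the 5 members with an unadjusted p under 0.05. Both aged-SP points lie above all young-SP points for Serpinb11, Serpinb5 and Serpinb8, and below them for Serpine2 and Serpinf1.

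Several marker lists were set beside these values. The markers of vaginal and cervical squamous epithelium, where maspin is abundant, summed to 8.28 and 6.52 CPM in the aged-SP libraries and to 13.4, 8.22 and 18.5 CPM in the young-SP libraries. The defining squamous keratins Krt5 and Krt14 had at most 5 counts and Krt6a at most 1. Of the 3 squamous markers tested, Dsg3 was at 3.81 and 0.448 CPM against 2.25, 0.414 and 0.801 CPM, Krt10 was lower in the aged-SP libraries (log2 fold change -1.50) and Trp63 had a log2 fold change of -0.31. The part of squamous cells in the Serpinb5 and Serpinb11 values was not tested. The gland list summed to 3924 and 2917 CPM in the aged-SP libraries and to 497, 39.8 and 34.0 CPM in the young-SP libraries. The implantation serine proteases Prss28 (1446 and 764 CPM against 90.7, 0.355 and 0.267 CPM) and Prss29 (2458 and 2137 CPM against 385, 2.96 and 11.5 CPM) made up most of it in both aged-SP libraries and in young-SP replicate 1, but not in young-SP replicates 2 and 4. The other 3 gland markers did not share this pattern. Cxcl15, a chemokine of glands, went the other way, at 2.90 and 1.92 CPM against 8.69, 20.2 and 8.14 CPM (log2 fold change -2.35 ± 0.53 SE, adjusted p = 0.116 by edgeR and 0.000254 by DESeq2). Foxa2, a transcription factor of glands, was at 10.6 and 12 CPM against 8.51, 14.1 and 11.6 CPM, and Lif, a cytokine required for implantation, at 6.41 and 2.62 CPM against 3.63, 2.25 and 2.40 CPM. In Serpinb11 and Serpinb5, as in Prss28 and Prss29, both aged-SP libraries were highest and young-SP replicate 1 was next. Serpinb11 and Serpinb5 were singled out for their higher aged-SP levels, so part of this likeness was fixed beforehand. Both aged-SP libraries were highest for 19.5% of all tested genes. The part of the glands in the difference of Serpinb11 and Serpinb5 was not tested. General epithelial markers summed to 1274 and 1318 CPM against 1689, 966 and 1158 CPM, and the groups overlapped.

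The 4 tested clade B genes of chromosome 13, which include the guards against granule proteases, had overlapping groups and log2 fold changes between -0.21 and 0.27. Serpinb6a was at 113 and 151 CPM in the aged-SP libraries and at 101, 107 and 121 CPM in the young-SP libraries (log2 fold change 0.27 ± 0.16 SE, adjusted p = 0.404 by edgeR). Serpinb1a was at 40.1 and 25.2 CPM against 37.7, 40 and 36 CPM, with aged-SP replicate 4 standing low. Serpinb9, the inhibitor of granzyme B that protects cells from killing by lymphocytes, was at 41.5 and 34.0 CPM against 35.8, 30 and 33.1 CPM. Serpinb6b was at 18.0 and 19.5 CPM against 17, 17.5 and 24.5 CPM. None of these 4 genes had an unadjusted p under 0.05. The aged-SP libraries of Serpinb1a differed by 1.59-fold. Exons of Serpinb6a overlap those of Nqo2, Ripk1 and 1110046J04Rik, and 25.1% of its 50-base stretches occur in another gene, so its count is uncertain.

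Among the secreted serpins of clades E and F, Serpinf1 and Serpine2 were lower in both aged-SP libraries, whereas the secreted Serpina3n, at a mean FPKM close to that of Serpine2, was higher in both. Serpinf1 (ENSMUSG00000000753, chr11:75409769-75422701) was at 149 and 187 CPM in the aged-SP libraries and at 242, 208 and 259 CPM in the young-SP libraries. The groups did not overlap, and the means were 168 ± 26.8 CPM (SD, n = 2) and 236 ± 25.7 CPM (SD, n = 3). The log2 fold change was -0.49 ± 0.15 (SE, adjusted p = 0.180 by edgeR), with an adjusted p of 0.0629 by DESeq2, and it lay between -0.66 and -0.34 without any 1 library. Serpine2 (ENSMUSG00000026249, chr1:79794197-79861180) encodes protease nexin-1, which inhibits thrombin and the plasminogen activators at cell surfaces. It was at 56.3 and 40.2 CPM in the aged-SP libraries and at 75.6, 65.9 and 62.4 CPM in the young-SP libraries. Its log2 fold change was -0.49 ± 0.17 (SE, adjusted p = 0.224 by edgeR), between -0.76 and -0.27 without any 1 library. Markers of endometrial stroma, the tissue layer that makes much of the uterine matrix, summed to 3349 and 4081 CPM against 3331, 4128 and 4714 CPM, with 6 of 7 at a negative log2 fold change and a median of -0.28, and their part in the lower values was not tested.

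Serpini1, encoding neuroserpin, an inhibitor of tissue plasminogen activator, was at 5.74 and 5.50 CPM against 6.00, 8.87 and 6.94 CPM. Its groups did not overlap, and the log2 fold change was -0.37 ± 0.23 (SE, adjusted p = 0.439 by edgeR).

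In clade A the Serpina3 genes, relatives of antichymotrypsin, varied widely within each group. Serpina3g, an intracellular member of this clade that inhibits cysteine cathepsins, was at 61.4 and 11.1 CPM in aged-SP replicates 1 and 4 and at 40.3, 6.68 and 7.08 CPM in young-SP replicates 1, 2 and 4. One library of each group was thus high and the others low, by 5.55-fold between the aged-SP libraries and by 5.86-fold between young-SP replicate 1 and the mean of the other young-SP libraries. Serpina3h followed the same order of libraries, with 9.01 and 1.28 CPM against 2.75, 0.532 and 0.801 CPM. Serpina3i, at 1.21 and 0.256 CPM against 0.876, 0.177 and 0.0668 CPM, was also highest in the replicates numbered 1. Serpina3f was at 3.02 and 0 CPM against 0.625, 0 and 0.0668 CPM.

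The log2 fold changes of these 4 genes were 2.68 (Serpina3f), 1.91 (Serpina3h), 1.01 (Serpina3g) and 0.96 (Serpina3i), with adjusted p values between 0.360 and 0.667 by edgeR. Without aged-SP replicate 1 they became -4.92, -0.089, -0.70 and -0.54. The sequences of the genes are close: among coding sequences, Serpina3f and Serpina3i were identical at 91.4% of aligned bases. Between 10.6% and 21.9% of their 50-base stretches occur in another gene, mostly a neighbour of the array, so reads could be split between them and the 4 genes are not independent measurements.

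Serpina3n, a secreted acute-phase serpin that inhibits granzyme B, behaved in part differently. It was at 26.5 and 14.9 CPM in the aged-SP libraries and at 13.7, 6.27 and 13 CPM in the young-SP libraries, so the groups did not overlap. The aged-SP replicates differed by 1.78-fold and young-SP replicate 1 exceeded the mean of the other young-SP libraries by 1.43-fold. The log2 fold change was 0.92 ± 0.41 (SE, adjusted p = 0.306 by edgeR), between 0.44 and 1.27 without any 1 library.

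The neutrophil markers were also uneven between libraries. Their summed level was 103 and 31.0 CPM in aged-SP replicates 1 and 4 and 219, 53.2 and 36.2 CPM in young-SP replicates 1, 2 and 4. Both replicates numbered 1 were thus the highest, as for Serpina3g, although in the reverse order. Of the 6 markers, S100a9 was at 50.1 and 2.17 CPM against 102, 14.5 and 5.34 CPM, while Ly6g was at most 1.22 CPM and Mpo lay between 1.69 and 3.08 CPM. The markers of T and NK cells summed to 31.9 and 22.2 CPM against 41.2, 38.2 and 62.9 CPM. The part of leukocytes in the Serpina3 levels was not tested.

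**Figure D4:**
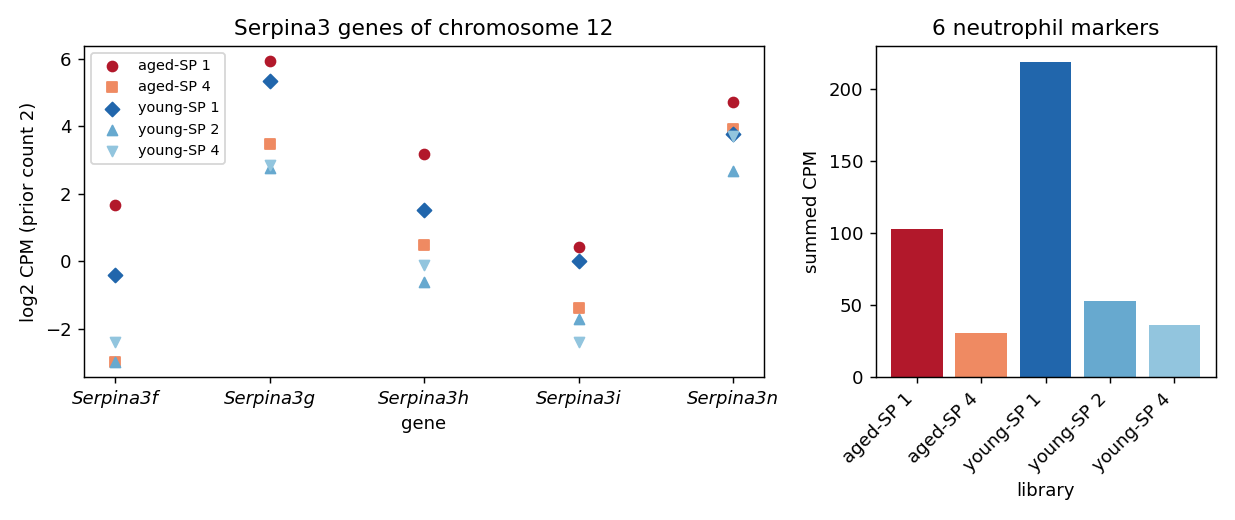
Left, log2 CPM (prior count 2) of the tested Serpina3 genes in each library (points). Right, summed CPM of 6 neutrophil markers in each library (bars). Aged-SP replicate 1 and young-SP replicate 1 are the highest libraries for Serpina3f, Serpina3g, Serpina3h and Serpina3i and for the marker sum, whereas for Serpina3n young-SP replicate 1 lies among the other libraries.

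The remaining clade A genes were low. Serpina1a, 1 of the antitrypsins that inhibit neutrophil elastase, was at 3.26 and 1.22 CPM against 0.938, 0.473 and 1.27 CPM (log2 fold change 1.33 ± 0.59 SE, adjusted p = 0.302 by edgeR). Serpina1b was at 6.71 and 3.13 CPM against 2.31, 4.32 and 4.67 CPM, and Serpina9, known from germinal centre B cells, at 2.60 and 6.59 CPM against 2.25, 3.61 and 3.00 CPM. All 3 had overlapping groups. Serpina1a shares 57.6% of its 50-base stretches with other genes, mostly Serpina1c, and Serpina1b shares 29.5%, so the values of single antitrypsin genes are uncertain.

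The proteases, receptors and other inhibitors that work with serpins were described by 7 lists of 88 genes, of which 73 were tested. None was called by edgeR, while 15 had an unadjusted p under 0.05 (aged-SP higher in 9 and lower in 6) and 7 were called by DESeq2. These are 20.5% and 9.59% of the tested genes of the lists, beside 19.0% and 3.60% over all genes. Among the plasminogen activators and their partners, 0 of 5 tested genes had an unadjusted p under 0.05 by edgeR. The tissue activator Plat, the highest of them, was at 91.6 and 223 CPM against 280, 159 and 182 CPM, and the urokinase Plau at 24.4 and 35.9 CPM against 17.5, 13.7 and 24.5 CPM (log2 fold change 0.70 ± 0.29 SE, adjusted p = 0.280 by edgeR and 0.222 by DESeq2). Plasminogen itself had at most 2 counts.

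Of 12 tested coagulation genes, 2 were higher and 2 lower at an unadjusted p under 0.05, against 9.62% and 9.36% of all tested genes. F3, the tissue factor that starts clotting, had both the highest FPKM and the smallest p of its list, at 544 and 158 CPM against 88.5, 96.2 and 107 CPM (log2 fold change 1.85 ± 0.48 SE, adjusted p = 0.144 by edgeR and 0.00143 by DESeq2). Aged-SP replicate 1 was far above the others, and it was also the library with the most Serpinb11, Serpinb5 and Serpina3g.

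The granule proteases of leukocytes, of which 15 were tested, include targets of Serpinb9, Serpinb6a and Serpinb1a. At an unadjusted p under 0.05, 1 was higher and 1 lower, against 9.62% and 9.36% of all tested genes. The higher gene was Prtn3, at 3.45 and 1.73 CPM against 0.751, 0.591 and 0.401 CPM. Its log2 fold change was 2.14 ± 0.45 (SE, adjusted p = 0.108 by edgeR and 0.0203 by DESeq2). Gzmk, encoding granzyme K, was low in every library and near the floor in both aged-SP libraries. It was at 0.302 and 0.192 CPM against 1.13, 1.24 and 1.54 CPM (log2 fold change -2.35 ± 0.43 SE, adjusted p = 0.0886 by edgeR and 0.0346 by DESeq2). Cma1, a mast cell chymase with the highest FPKM of the list, was at 15.4 and 56.5 CPM against 7.69, 14.0 and 23.8 CPM, with overlapping groups. Elane, encoding neutrophil elastase, had at most 3 counts and was not tested. Ctsg, encoding cathepsin G, had at most 22 counts and was not tested either.

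Of 16 tested epithelial and secreted serine proteases, 3 were higher and none was lower at an unadjusted p under 0.05. Over all tested genes the shares were 9.62% and 9.36%. Prss23 was at 53.4 and 50.8 CPM against 38.2, 30.9 and 31.4 CPM (log2 fold change 0.64 ± 0.13 SE, adjusted p = 0.0986 by edgeR and 0.00552 by DESeq2). Prss29, an implantation serine protease of the glands, had the highest FPKM of the list and stood at 2458 and 2137 CPM against 385, 2.96 and 11.5 CPM (log2 fold change 4.11 ± 1.87 SE, adjusted p = 0.312 by edgeR). Its young-SP libraries differed widely among themselves, with replicate 1 the highest. The 9 cysteine proteases include targets of Serpina3g. At the same threshold, 2 were higher and 1 lower, against 9.62% and 9.36% of all tested genes. Cathepsin Z (Ctsz) was at 189 and 224 CPM against 168, 126 and 142 CPM (adjusted p = 0.177 by edgeR and 0.0704 by DESeq2), and cathepsin B (Ctsb), the highest, at 1259 and 1546 CPM against 1183, 798 and 1036 CPM.

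Complexes of serpins with proteases are cleared by receptors of the LDL receptor family. Of the 6 tested, 2 were lower and none was higher at an unadjusted p under 0.05, where 9.36% of all tested genes were lower. Lrp2, encoding megalin, had the smallest p of all 73 genes, at 24.8 and 17.3 CPM against 176, 362 and 554 CPM (log2 fold change -4.11 ± 0.57 SE, adjusted p = 0.0734 by edgeR and 1.5e-17 by DESeq2). Every aged-SP library was below every young-SP library by a wide margin. Lrp1, the receptor of highest level, was at 624 and 717 CPM against 617, 609 and 692 CPM. Of the 10 other protease inhibitors, 1 was higher at an unadjusted p under 0.05, where 9.62% of all tested genes were higher. It was Spint2, an inhibitor of membrane serine proteases, at 670 and 275 CPM against 223, 111 and 128 CPM. Its log2 fold change was 1.62 ± 0.46 (SE, adjusted p = 0.163 by edgeR and 0.00471 by DESeq2). Cystatin C (Cst3), an inhibitor of cathepsins and the highest of them, was at 701 and 634 CPM against 660, 555 and 627 CPM.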

How the data were processed

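RNA-seq of whole uteri was analysed for 2 aged-SP and 3 young-SP females, grouped by the sample labels. The study reports that a further young-SP sample was excluded as an outlier in clustering. It was not analysed here, so the young-SP spread, and the p-values that rest on it, do not include it. Per the submitters' processing notes, HISAT2 2.1.0, Bowtie2 2.2.3 and HTSeq 0.6.0 were used, and the authors deposited unnormalized counts per gene. The genome build used for counting is not given in the sources used here, but all 41 members have the same position in GENCODE M21 (GRCm38). The deposited FPKM values are those counts divided by gene length and library total. The deposited table also holds the authors' mean signal after scaling, a fold ratio, log2 fold changes, and p-values and adjusted p-values of their own comparison, none of which was used.

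Counts were tested with edgeR 4.0.16 (filterByExpr, TMM, glmQLFit and glmQLFTest, Benjamini-Hochberg over 17013 genes) in R 4.3.3. CPM values use library sizes after TMM. DESeq2 1.42.0, limma 3.58.1 and other settings, 14 in all, were alternatives, and no cause of a difference was tested. Tables, promoter searches, pairwise alignments and plots were made in Python 3.11.15 with numpy 2.4.6, pandas 2.3.3, biopython 1.88 and matplotlib 3.10.9. 1 gene that the name rule selects is not reported here. Members and lists were chosen with earlier results of these data known. Values in every library are given for members called by edgeR or DESeq2, with an unadjusted p under 0.05, or among the 10 of highest FPKM, and for examples of each clade. In each pathway list the genes with the smallest p and the highest FPKM are named. Serpina3f, Serpina3h, Serpina3i, the untested Serpinb2, Serpinb7 and Serpinb12, and the proteases Plg, Elane, Ctsg and Prtn3 were added after their values were seen. Whether counting used strand is not given in the sources used here. Counts could not be corrected for duplicate reads. Precision is also limited by the number of females.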

Additional observations from a re-analysis of the deposited data

How the results depend on the processing

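Of 228 gene results under alternatives, 218 kept their direction and their side of the threshold, 2 passed it (Serpinb11, by DESeq2 and with young-SP replicate 1 removed) and 8 changed sign, each when 1 library was left out. Without aged-SP replicate 1 the log2 fold changes were -0.26 (Serpina1b), -4.92 (Serpina3f), -0.70 (Serpina3g), -0.089 (Serpina3h) and -0.54 (Serpina3i). They were -0.18 (Serpina9) and 0.082 (Serpinb1a) without aged-SP replicate 4, and 0.11 (Serpinb6b) without young-SP replicate 4. The other ends of their ranges without single libraries were 0.83 (Serpina1b), 5.28 (Serpina3f), 2.39 (Serpina3g), 2.94 (Serpina3h), 2.48 (Serpina3i), 1.15 (Serpina9), -0.59 (Serpinb1a) and -0.18 (Serpinb6b). Leaving out an aged-SP library leaves 1, which is then assumed to vary like the others. Of the 18 members, 10 kept their sign in all 5 of these fits. Over all tested genes edgeR called 25 genes, DESeq2 632, edgeR without the filter on low counts 203, and edgeR without single libraries between 1 (aged-SP replicate 1 left out) and 562 (young-SP replicate 1 left out). The called members were 0 with edgeR, 1 with DESeq2, and 0 to 1 without single libraries. The members with an unadjusted p under 0.05 were 5 of 18, 8 of 41 with DESeq2, 9 of 41 without the filter, 3 of 12 with at least 10 counts in every library, and 2 (without young-SP replicate 4) to 7 (without aged-SP replicate 4) without single libraries. The median log2 fold change was 0.23 over the 12 members with at least 10 counts in every library and -0.050 (aged-SP replicate 1 left out) to 0.68 without single libraries. Deviations from the group means correlated at 0.152 for the replicates numbered 1 and at 0.136 for those numbered 4, but 2 shared numbers do not show a pairing. With the replicate number as a block, 2 genes and 0 members were called, and 6 members had an unadjusted p under 0.05. The cause of these changes was not tested. At this depth 23 members had too few counts to be tested.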
